A study of Mus musculus with 12 samples.

Results

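Trav17, Trav19 and Trav21-dv12 are V genes of the mouse TCR alpha locus that lie close to the Traj segments. Their members here are the TRAC clonotypes, the distinct rearranged alpha chains, whose V region was listed as V17, as V19 or with a name starting with V21. Over 12 libraries 11796 clonotype listings met this rule, or 2.31% of 509702 TRAC listings, with 25346 UMIs (unique molecular identifiers, each marking 1 captured RNA molecule). Trav19 gave 5378 of these listings, Trav21-dv12 3775 and Trav17 2643. Counted once across libraries, they were 8983 different chains, each defined by its V region, J region and CDR3 nucleotides.

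The libraries came from CD8+ T cells of wild-type C57BL/6 mice that carried HNSCC/Q1-2 tumors, a mouse oral cancer line, and the cells were taken with magnetic CD8 microbeads from the tumor, the spleen and the tumor-draining lymph node (tdLN). The 4 treatment groups were control IgG, IL-10-Fc (IL-10 fused to an antibody Fc part), αCSF1R (an antibody that blocks the CSF-1 receptor) and BF10 (that antibody fused to IL-10). All groups bore tumors, and the labels give 30 mg/kg for every agent, 3 doses and an interval of 3 days, while the study's methods list doses by weight that differ between the agents. Each library was made from 100 ng of RNA mixed from 3 mice of a treatment, so there was 1 library for each treatment and tissue and no replicate of a treatment within a tissue. Whether the tissues of a treatment came from the same mice is not stated; the tissue comparisons below pair them by treatment and call each treatment a pool. The tdLN titles leave out the CD8 that the tumor and spleen titles carry, though the cell type label and the isolation text name CD8 T cells for all 3 tissues. The labels give no age, and the files hold no marker gene by which the CD8 label could be checked.

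An alpha chain is made in the thymus when a V gene is cut and joined to a Traj segment, and the DNA between them is lost. The same chromosome can rearrange again, joining a V gene farther upstream to a Traj segment farther downstream, until a chain passes selection. V genes at the J end of the V array are known for taking part in early rounds. The CDR3, the loop that faces the peptide, spans the joint and holds the end of V, the start of J and bases that terminal transferase (TdT) added between them. Trav21-dv12 also joins delta segments, and so contributes to both alpha and delta chains.

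In GRCm38, Trav17 lies at chr14:53806639-53807115, Trav19 at chr14:53845234-53845827 and Trav21-dv12 at chr14:53875984-53876752, all on the plus strand and each a V gene in GENCODE M21. Their ends lie 348, 309 and 278 kb upstream of Traj61, and Trav21-dv12 is the V gene nearest to the Traj segments among the 95 V genes that stand alone in a V region name and were found in GENCODE. Trav23, at chr14:53977153-53977678, lies nearer but is not among these 95. Trav18 lies between Trav17 and Trav19, and the pseudogene Trav20 between Trav19 and Trav21-dv12. The germline ends of the members are shown because they set what each CDR3 starts with. Capitals mark the germline bases that belong to the CDR3, from the codon of the conserved cysteine to the end of the V segment, and the last 7 bases are those in which the heptamer of the recombination signal lies.
Trav17 (chr14:53807087-53807122): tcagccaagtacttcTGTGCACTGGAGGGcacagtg
Trav19 (chr14:53845800-53845834): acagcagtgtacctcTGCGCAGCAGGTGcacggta
Trav21-dv12 (chr14:53876722-53876759): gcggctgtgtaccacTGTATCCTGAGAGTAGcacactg
Trav17 thus brings up to 14 germline bases to a CDR3, Trav19 up to 13 and Trav21-dv12 up to 16. Of the leading Traj partners described further on, those of Trav19 and Trav21-dv12 are shown, while Traj53 and Traj52 of Trav17 are not. The segments shown bring the following bases up to and including the last CDR3 codon, all in lower case.
Traj58 (chr14:54157280-54157311): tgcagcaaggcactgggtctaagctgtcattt
Traj57 (chr14:54158505-54158538): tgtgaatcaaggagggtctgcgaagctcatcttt
Traj56 (chr14:54159263-54159294): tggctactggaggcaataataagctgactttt
Traj49 (chr14:54168686-54168713): gaacacgggttaccagaacttctatttt

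Depth differed between libraries. TRAC UMIs numbered 109939 to 121278 in spleens, 55901 to 137078 in tdLNs and 23650 to 117661 in tumors, and TRAC clonotypes 40731 to 62175, 38898 to 63371 and 2430 to 55103. The αCSF1R tumor library was the smallest and held 60 member clonotypes, 23 of Trav17, 24 of Trav19 and 13 of Trav21-dv12. The control IgG tumor library held 221, and the other 10 libraries 875 to 1509. Gamma and delta chains took 4.96% to 6.34% of all UMIs in tdLNs, 0.677% to 2.30% in spleens and 0.873% to 8.93% in tumors, and the share of TRAC UMIs with at least 7 reads was 6.49% to 36.0% in tdLNs, 32.8% to 57% in spleens and 37.1% to 73.3% in tumors. Within tdLNs the share at 7 reads was 36.0% with control IgG and 30.8% with IL-10-Fc, but 8.31% with αCSF1R and 6.49% with BF10. The values of this paragraph moved with tissue and differed between tdLN libraries. Their part in the tissue and treatment differences below was not tested. Bulk RNA cannot tell apart fewer cells and less RNA per cell.

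The summed share of the members overlapped between tissues, while in tdLNs Trav19 was lower and Trav21-dv12 higher than in spleens and tumors. The summed share was 2.23% to 2.35% in spleens, 2.25% to 2.40% in tdLNs and 2.29% to 2.47% in tumors. Trav19 held 1.16%, 1.15%, 1.06% and 1.11% of spleen clonotypes with control IgG, with IL-10-Fc, with αCSF1R and with BF10. In tdLNs of the same order of treatments it held 0.887%, 0.959%, 0.853% and 0.879%, and in tumors 1.29%, 1.22%, 0.988% and 1.17%. All 4 tdLN libraries lay below all spleen and all tumor libraries.

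Trav21-dv12 showed the opposite order. Its share was 0.590%, 0.687%, 0.658% and 0.647% of spleen clonotypes with control IgG, with IL-10-Fc, with αCSF1R and with BF10. It was 0.984%, 0.827%, 0.937% and 0.941% in tdLNs and 0.560%, 0.596%, 0.535% and 0.642% in tumors. Here all 4 tdLN libraries lay above all others, and spleens and tumors overlapped. Trav17 held 0.525%, 0.455%, 0.513% and 0.595% in spleens, 0.533%, 0.595%, 0.464% and 0.458% in tdLNs and 0.486%, 0.476%, 0.947% and 0.510% in tumors, and its tissues overlapped. The exact 95% binomial interval of the αCSF1R tumor value of 0.947% ran from 0.601% to 1.42%. Intervals cover counting error only, since UMIs of pooled mice are not independent animals.

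**Figure D1:**
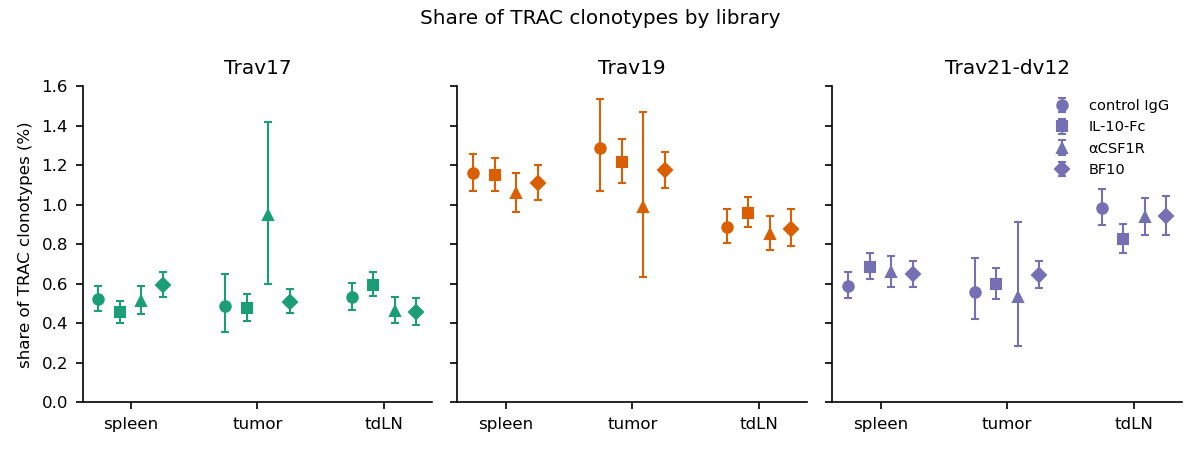
Share of TRAC clonotypes (%, vertical axis) held by Trav17, Trav19 and Trav21-dv12 in spleen, tumor and tdLN, 1 point for each library with its exact 95% binomial interval, and 1 symbol for each treatment. The tdLN points of Trav19 (0.853% to 0.959%) lie below, and those of Trav21-dv12 (0.827% to 0.984%) above, all points of the other tissues.

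Tissues were compared within each treatment, and the mean of the 4 differences was tested by exact sign flips (two-sided). With 4 treatments this exact permutation test cannot go below 2 of 16 sign flips, or p = 0.13, so no comparison could pass a threshold of 0.05. Trav21-dv12 was higher in tdLN than in spleen by 0.276 ± 0.104 percentage points (SD, n = 4; exact permutation p = 0.13, adjusted p = 0.3), with the difference positive in 4 of 4 treatments. Trav19 was lower by 0.225 ± 0.0367 points in 4 of 4 (difference -0.225; exact permutation p = 0.13, adjusted p = 0.3). Against tumors, tdLNs had more Trav21-dv12 (tumor minus tdLN -0.339 ± 0.0905, n = 4, exact permutation p = 0.13, adjusted p = 0.3) and less Trav19 (0.272 ± 0.110, n = 4, exact permutation p = 0.13, adjusted p = 0.3). For the summed members the differences were 0.0416 ± 0.0881 for tdLN minus spleen, 0.0672 ± 0.120 for tumor minus spleen and 0.0256 ± 0.141 for tumor minus tdLN, each smaller than its SD over the 4 treatments, with exact permutation p-values of 0.375, 0.5 and 0.875. The first of these depended on the setting: it was 0.465 ± 0.249 with UMIs of at least 7 reads and 0.12 ± 0.0749 with V regions of 1 gene, positive in 4 of 4 treatments in both, and 0.107 ± 0.10 with at least 2 UMIs. When only clonotypes with a UMI of at least 7 reads were counted, the Trav19 difference of tdLN minus spleen shrank to -0.104 and was positive in 1 of 4 treatments, while that of Trav21-dv12 was 0.471. At 7 reads the αCSF1R and BF10 tdLNs kept only 8.31% and 6.49% of their TRAC UMIs. The Trav19 difference of tumor minus tdLN was 0.101 ± 0.328 by UMIs and 0.112 ± 0.250 with UMIs of at least 7 reads, positive in 2 of 4 treatments in both. For Trav21-dv12 the difference kept its direction in 4 of 4 treatments with V regions of 1 gene, at 0.423 for tdLN minus spleen and -0.518 for tumor minus tdLN. The latter was -0.521 by UMIs and -0.541 with UMIs of at least 7 reads. The setting with V regions of 1 gene removes no member and only lowers the TRAC total. It raises every share, so the larger sizes under it, also for the summed members, are not read as support.

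Such a separation was common among V regions. Of 108 V regions with a mean share of at least 0.1%, 46 had no overlap between the 4 tdLN and the 4 spleen libraries (42.6%), in 21 with tdLN higher and in 25 with tdLN lower. Trav21-dv12 and Trav19 are among the 46, and 2 of 3 members is not read as a property of the members beside that background. Between tumors and tdLNs 30 V regions did not overlap (27.8%), again with Trav21-dv12 and Trav19 among them. Between tumors and spleens 3 did not (2.78%), none of them a member. Ranked by the ratio of the mean tdLN share to the mean spleen share, Trav21-dv12 stood 6 of 108 with a ratio of 1.43, Trav17 52 with 0.981 and Trav19 91 with 0.799. The J-distal V genes Trav1 and Trav2, at the far end of the array, had ratios of 0.803 and 0.586, and the neighbour Trav16 had 0.771.

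The balance of the members was also seen as the number of Trav21-dv12 clonotypes for each Trav19 clonotype, a ratio chosen after the shares were seen. It was 0.508, 0.597, 0.622 and 0.583 in spleens with control IgG, with IL-10-Fc, with αCSF1R and with BF10. It was 1.11, 0.862, 1.10 and 1.07 in tdLNs, and 0.434, 0.490, 0.542 and 0.547 in tumors. The tdLN libraries were thus the ones in which Trav21-dv12, the member nearest to the Traj segments, was about as frequent as Trav19.

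By UMIs instead of clonotypes, the members were scarcer in 2 tumor libraries. They took 1.47% of TRAC UMIs in the control IgG tumor (exact 95% interval 1.39% to 1.55%) and 1.10% in the αCSF1R tumor (0.974% to 1.25%), against 2.26% (2.16% to 2.35%) with IL-10-Fc and 2.32% (2.24% to 2.41%) with BF10. Their UMI share was 2.17% to 2.32% in spleens and 2.16% to 2.49% in tdLNs. In the control IgG and αCSF1R tumors a member clonotype had on average 5.31 and 4.35 UMIs, and a clonotype of any other V 8.52 and 9.87. In the IL-10-Fc and BF10 tumors the averages were 2.55 against 2.59 and 2.13 against 2.14, and they were 1.94 to 2.63 against 1.95 to 2.70 in spleens and 1.46 to 2.26 against 1.44 to 2.18 in tdLNs. Clonotypes of at least 10 UMIs held 30.2% of the members' UMIs in the control IgG tumor and 32.2% in the αCSF1R tumor, against 63.9% and 68.7% for the other V regions. By number the groups were closer. Such clonotypes were 11.3% of member clonotypes (exact 95% interval 7.46% to 16.2%) and 13.5% of the others with control IgG. With αCSF1R they were 10% (3.76% to 20.5%) and 14.9%. The largest member clonotypes in these 2 tumors had 56 and 22 UMIs, while the largest of the other V regions had 6151 and 1497. The other V regions were not taken one by one, so the difference is not read as a property of the members.

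**Figure D2:**
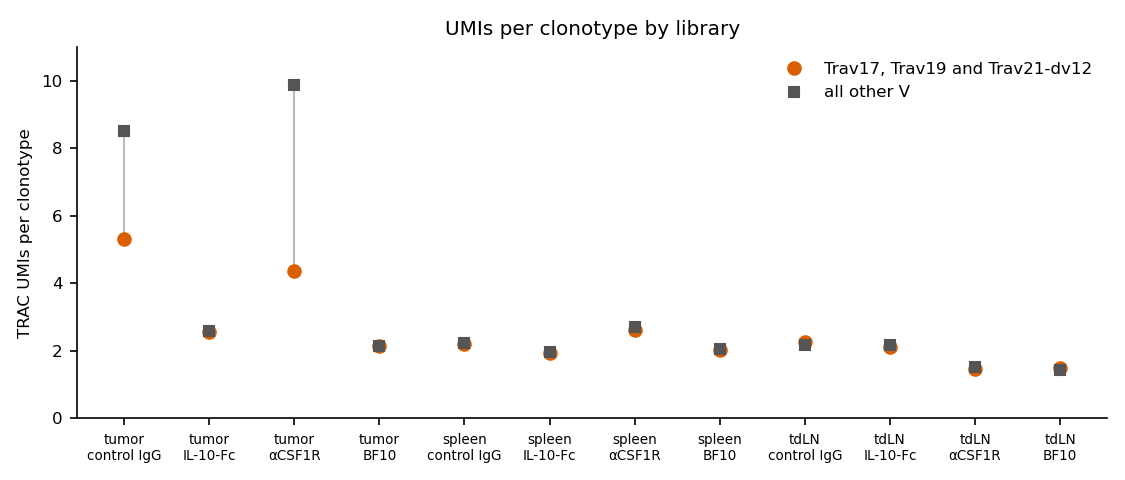
Mean number of TRAC UMIs for each clonotype (vertical axis) in each of the 12 libraries, for the members (circles) and for all other V regions (squares). The symbols stand apart in the control IgG tumor (5.31 and 8.52) and the αCSF1R tumor (4.35 and 9.87) and lie close together in the IL-10-Fc tumor (2.55 and 2.59) and the BF10 tumor (2.13 and 2.14).

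Treatments within a tissue have 1 library each and were not tested. For the summed share of clonotypes, 0 of 9 differences from control IgG had a counting interval that left out 0. In tumors the difference was -0.0456 points with IL-10-Fc (95% interval -0.402 to 0.287), 0.135 with αCSF1R (-0.529 to 0.892) and -0.00763 with BF10 (-0.355 to 0.314). For single genes 3 of 27 intervals left out 0. These were Trav17 in the αCSF1R tumor (0.461, interval 0.0791 to 0.949, on 23 clonotypes), Trav21-dv12 in the IL-10-Fc spleen (0.0963, 0.00192 to 0.190) and Trav21-dv12 in the IL-10-Fc tdLN (-0.157, -0.274 to -0.0425). By UMIs, 5 of 9 summed and 19 of 27 single-gene intervals left out 0. The UMI intervals treat the UMIs of a clonotype as independent, so they are too narrow where clonotypes are large. No such count was made for the other V regions, so neither the clonotype nor the UMI counts are read as a property of the members. The summed share in tumors was higher than with control IgG by 0.788 points with IL-10-Fc (0.662 to 0.913) and 0.855 with BF10 (0.734 to 0.975), and the αCSF1R difference was -0.365 (-0.520 to -0.202). These differences of UMI share go with the UMIs for each clonotype given above.

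The members joined Traj segments near the V side of the J region. Traj segments are numbered from the constant gene upward, so a higher number lies nearer to the V genes. Over the 12 libraries the mean Traj number was 43.8 for Trav17 (library means 41.1 to 45.6), 47.7 for Trav19 (46.4 to 50.0) and 48.5 for Trav21-dv12 (47.1 to 49.9). For all other V regions it was 28.7 (28.4 to 29.2), so every library mean of a member lay above every one of the other V regions. The summed members exceeded the other V regions by 18.2 ± 0.490 Traj numbers (SD over 4 pools, each the mean of 3 tissues), in 12 of 12 libraries, with an exact permutation p of 0.13, the smallest that 4 pools allow (adjusted p = 0.13). The differences were 15 ± 1.12 for Trav17, 18.9 ± 0.569 for Trav19 and 19.7 ± 0.358 for Trav21-dv12, each with the same exact permutation p of 0.13. As a background, 31 of 108 V regions had a mean Traj number above that of all other clonotypes in 12 of 12 libraries (28.7%).

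The members also differed among themselves in the order of their distance. Trav19 exceeded Trav17 by 3.89 ± 1.32 Traj numbers, in 12 of 12 libraries, and Trav21-dv12 exceeded Trav19 by 0.812 ± 0.593, in 11 of 12 libraries, each with an exact permutation p of 0.13 over 4 pools. The exception was the αCSF1R tumor, where Trav19 stood at 50.0 on 24 clonotypes and Trav21-dv12 at 47.1 on 13. Segments in the V-proximal 21.3 kb of the 63.8 kb J region, of which 11 were listed (Traj58 to Traj42), took 63.5% of Trav17, 78.8% of Trav19 and 79.7% of Trav21-dv12 clonotypes on average over libraries. They took 19.2% of all other clonotypes. The C-proximal 21.3 kb, with 14 listed segments from Traj21 to Traj2, took 4.76%, 2.27% and 1.45% of the members' clonotypes against 28.1% of the others.

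Neighbours placed these values along the locus. Trav18, between Trav17 and Trav19, had a mean partner of 47.6 over the 10 libraries that listed it, on 147 clonotypes, and the pseudogene Trav20 had 44.2 on 186. Trav3-4, the next V gene upstream at 377 kb from Traj61, had 42.2. Beyond it the order was not simple, since Trav14-3, at 391 kb, had 25 and Trav16, at 411 kb, had 24.4. Trav14d-2, at 1206 kb, had 43.6. At the J-distal end, Trav1 and Trav2 had pooled means of 24.7 and 23.5, and 1.93% and 1.58% of their clonotypes used the V-proximal segments. Among 70 V genes upstream of Trav17 with at least 100 clonotypes, the mean Traj number ran from 21.2 (Trav4n-3) to 43.6. V regions of several genes were left out of this order. One of them, V7D-6 or V7N-6, lay 11.1 to 18.9 Traj numbers above all other TRAC clonotypes. On the same measure Trav17 lay 11.7 to 16.3 and Trav19 17.8 to 20.7 above. The mean of Trav14d-2 (library means 42.4 to 44.1) lay within the library range of Trav17 (41.1 to 45.6). Trav14d-2 and Trav17 thus did not differ beyond their spread, and Trav19 and Trav21-dv12 lay above both. Trav20, Trav3-4, Trav14-3, Trav14d-2, Trav4n-3 and the region of V7D-6 or V7N-6 were named after their values were seen.

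**Figure D3:**
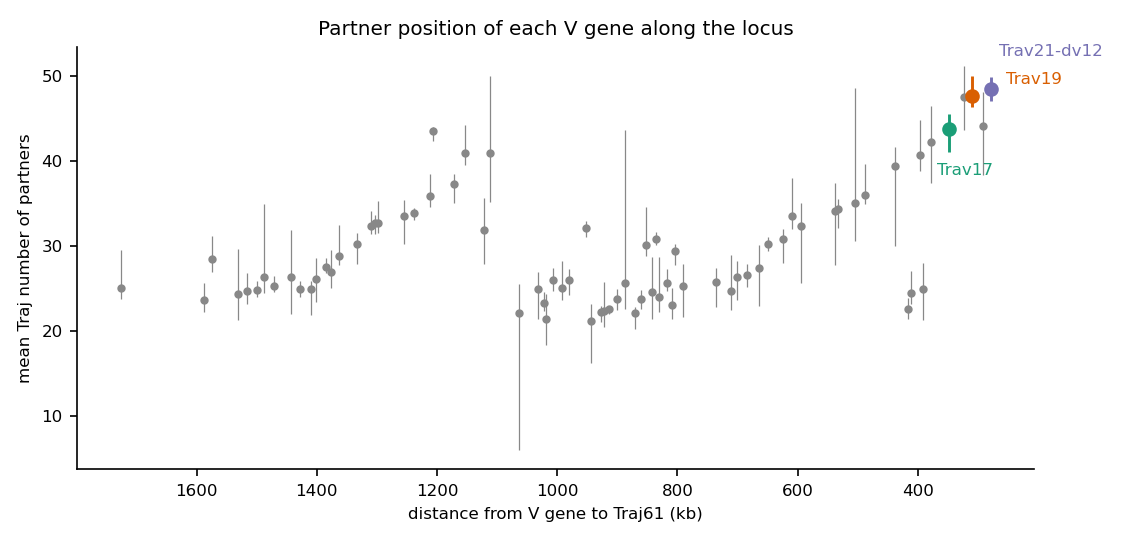
Mean Traj number of the partners (vertical axis) of each of 75 V genes with at least 100 clonotypes against its distance to Traj61 (kb, horizontal axis, nearest at the right); points are means over libraries and bars the lowest and highest library. Trav17 (43.8), Trav19 (47.7) and Trav21-dv12 (48.5), in color, stand at the upper right, and the upstream genes shown reach 43.6 at most. V regions of several genes are not shown.

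The partners by name differed between the members. Trav17 spread over many segments and joined Traj49 (7.90% of its clonotypes, mean over libraries), Traj53 (7.83%) and Traj52 (6.80%) most often. Traj56 (6.66%) and Traj57 (6.41%) followed closely, and in tdLNs Traj57 led Trav17 with a mean of 8.63%. The order gives each library equal weight. Traj53 was highest in the αCSF1R tumor (21.7% on 23 clonotypes) and Traj52 in the control IgG tumor (15.2% on 46). Trav19 joined Traj56 most (15.5%), then Traj57 (10.6%) and Traj49 (9.99%). Trav21-dv12 joined Traj56 (14.4%), Traj57 (13.6%) and Traj58 (11.2%), the segments nearest to it. The other V regions used Traj56 in 1.38%, Traj57 in 0.937% and Traj58 in 0.759% of clonotypes, and their most frequent partners were Traj22 (6.56%), Traj31 (5.50%) and Traj30 (5.45%).

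**Figure D4:**
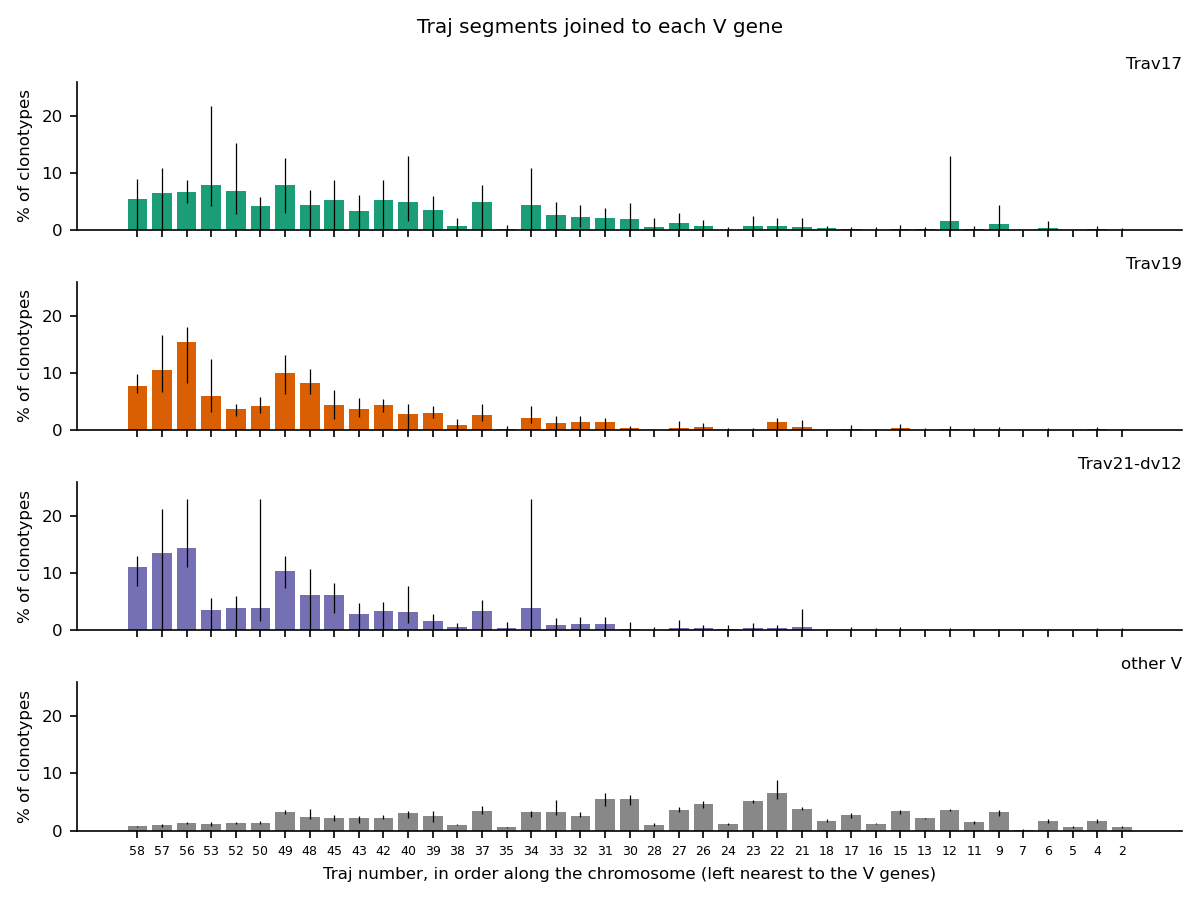
Share of clonotypes (%, vertical axis) that used each of the 41 listed Traj segments, in chromosome order with the V side at the left, for each member and for all other V regions; bars are means over 12 libraries and lines the lowest and highest library, the widest lines coming from the αCSF1R tumor with 13 to 24 clonotypes of a gene. Trav19 and Trav21-dv12 peak at Traj56 (15.5% and 14.4%), and the other V regions at Traj22 (6.56%).

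Traj57 was used more often in tdLNs than in spleens by Trav21-dv12, Trav19 and the other V regions, while the Trav17 values overlapped. Trav21-dv12 clonotypes used Traj57 in 17.7%, 19.1%, 21.3% and 17.8% of cases in tdLNs with control IgG, with IL-10-Fc, with αCSF1R and with BF10. In spleens the values were 12.8%, 10.8%, 13.4% and 11.5%, without overlap. In tumors they were 18.9% on 53 clonotypes, 11%, 0 of 13 clonotypes with αCSF1R and 9.04%. Of 14 segments with a mean of at least 2% among Trav21-dv12 clonotypes, 2 had no overlap between tdLNs and spleens (14.3%), Traj57 with tdLN higher and Traj45 with tdLN lower.

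Trav19 showed the same for Traj57, with 12.3%, 12.3%, 13.3% and 10.5% in tdLNs against 10.2%, 8.11%, 9.98% and 7.78% in spleens, the only one of 15 segments without overlap (6.67%). For Trav17 1 of 18 segments did not overlap (5.56%), Traj56, at 6.18% to 8.49% in tdLNs and 4.78% to 6.09% in spleens. Trav17 used Traj57 in 5.62% to 10.1% of clonotypes in tdLNs and 3.53% to 7.54% in spleens. With BF10 its tdLN value was the lower (5.62% against 7.54%). Among the other V regions 19 of 23 segments did not overlap (82.6%), on far more clonotypes, and Traj57 was 1.14% to 1.21% in tdLNs and 0.678% to 0.846% in spleens. Trav21-dv12 joined to Traj57 made up 0.158% to 0.199% of TRAC clonotypes in tdLNs and 0.0740% to 0.0884% in spleens. Without Traj57, Trav21-dv12 still held 0.669% to 0.810% in tdLNs and 0.515% to 0.613% in spleens, without overlap. The members' mean Traj number was higher in tdLN than in spleen by 1.10 ± 0.173 (n = 4, 4 of 4 treatments, exact permutation p = 0.13), and that of the other V regions by 0.601 ± 0.103 (n = 4, 4 of 4 treatments, exact permutation p = 0.13); whether these 2 differences differ was not tested.

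CDR3s of the members were longer than those of other V regions. The mean length over libraries was 14.2 amino acids for Trav17 (library means 14 to 14.8), 13.9 for Trav19 (13.8 to 14) and 14.8 for Trav21-dv12 (14.4 to 15.1), against 13.6 (13.5 to 13.7) for all other V regions. The differences were 0.652 ± 0.0632, 0.279 ± 0.0599 and 1.17 ± 0.0504 amino acids (SD over 4 pools), each positive in 12 of 12 libraries with an exact permutation p of 0.13 (adjusted p = 0.13). By the median in place of the mean, the differences of Trav19 and of the summed members were 0. That of Trav17 shrank to 0.167, and that of Trav21-dv12 was 1. Of 108 V regions, 23 were longer than all other clonotypes in 12 of 12 libraries (21.3%). The most frequent length was 14 for Trav17 (29.4%), Trav19 (31.9%) and the other V regions (30.8%), and 15 for Trav21-dv12 (26.5%), whose germline end is also the longest of the members. The joined Traj segments carry on average 31.2 germline CDR3 bases in members and 29.3 in other V regions with 1 gene and a readable end. The part of V and Traj ends in the lengths was not tested. In tdLNs Trav21-dv12 averaged 14.6 to 14.7 and in spleens 14.7 to 15.1 amino acids, a difference of -0.242 ± 0.141 (n = 4, 4 of 4 treatments lower, exact permutation p = 0.13).

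The joint itself was read by matching each CDR3 from its start to the germline V end and from its end to the germline Traj segment, and counting the bases left between as inserted. This could be done for 11794 of the 11796 member listings and, of all TRAC listings, for 60.5%, those of V regions with 1 gene and a readable end. No base was left between V and J in 14.3% of Trav17, 14.5% of Trav19 and 15.7% of Trav21-dv12 clonotypes (means over libraries), against 10.9% of the other V regions. For the summed members the difference was 3.52 ± 1.17 percentage points (SD over 4 pools), positive in 12 of 12 libraries (exact permutation p = 0.13, adjusted p = 0.167). Without chains listed in 6 or more libraries it was 2.19 points, and that of Trav19 went from 3.64 to 0.122 points, positive in 2 of 4 pools. The Trav17 difference was 3.39 ± 4.17 points, positive in 10 of 12 libraries, and 0.756 by UMIs. That of Trav21-dv12 was 4.86 ± 4.31 points and 2.95 without the αCSF1R tumor. The mean number of inserted bases was 3.22 for Trav17, 3.01 for Trav19 and 3.79 for Trav21-dv12, against 3.6. The Trav21-dv12 mean was above that of the other V regions in 7 of 12 libraries (exact permutation p = 0.5 over 4 pools). It rests in part on the αCSF1R tumor, where 13 Trav21-dv12 clonotypes averaged 7.08, and the median over libraries was 3.45. The mean of the other V regions was also highest in that tumor, at 5.28, and their median over libraries was 3.39. The medians of Trav17 and Trav19 were 3.19 and 3.05. The V end was complete in 50.7% of Trav17, 32.8% of Trav19 and 28.8% of Trav21-dv12 clonotypes and in 32.2% of the others.

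**Figure D5:**
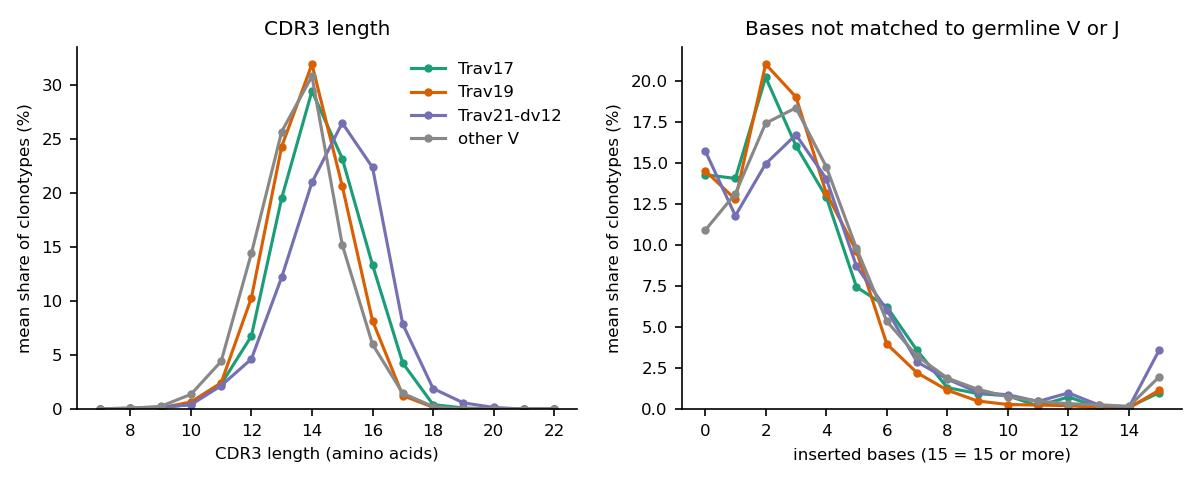
Left, CDR3 length (amino acids) and right, number of bases matched to neither germline V nor Traj (15 stands for 15 or more), each as the share of clonotypes (%, mean over 12 libraries) for the members and all other V regions. Trav21-dv12 peaks at 15 amino acids (26.5%) and the others at 14, and members lie above the other V regions (10.9%) at 0 inserted bases.

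Some member chains recurred from library to library. Of 3799 different Trav19 chains 727 (19.1%) were listed in 2 or more libraries and 77 (2.03%) in 6 or more. The values were 14.1% and 0.711% for Trav17 (298 and 15 of 2111), 13.1% and 0.683% for Trav21-dv12 (404 and 21 of 3073), and 15.3% and 1.09% for other V regions. No member chain was listed in all libraries. The widest were 5 Trav19 chains in 11 libraries, and 1 chain each of Trav17 and Trav21-dv12 in 10. They are shown because their joints can be read against the germline ends above; capitals mark inserted bases.
Trav19 with Traj56, first chain: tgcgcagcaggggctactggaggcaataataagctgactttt
Trav19 with Traj56, other chain: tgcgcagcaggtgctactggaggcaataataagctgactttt
Trav19 with Traj58, shorter chain: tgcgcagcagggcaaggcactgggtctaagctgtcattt
Trav19 with Traj58, longer chain: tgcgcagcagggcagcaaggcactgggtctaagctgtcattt
Trav19 with Traj48: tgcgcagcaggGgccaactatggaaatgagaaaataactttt
Trav17 with Traj43: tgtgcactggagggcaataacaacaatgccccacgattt
Trav21-dv12 with Traj56: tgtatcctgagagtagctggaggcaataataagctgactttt
Of these, 6 had 0 inserted bases and the Traj48 chain had 1. The first Traj56 chain of Trav19 had 149 UMIs in all, 2 to 31 a library, and the other had 135, 1 to 35 a library. Both were missing only from the αCSF1R tumor, the smallest library. The Trav17 chain had 28 UMIs and the Trav21-dv12 chain 40, and both were missing from the control IgG and αCSF1R tumors.

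Over all member chains, those listed in 1 library had on average 4.18 inserted bases, those in 2 to 5 libraries 1.83 and those in 6 or more 0.752. Chains of other V regions had 4.23, 2.22 and 1.25. A joint without inserted bases was found in 4.44% of member chains listed in 1 library and in 56.6% of the 113 listed in 6 or more, against 3.77% and 42.1% for other V regions. These are descriptions over chains, and deeper libraries list more of them. Between tumor and spleen, libraries of the same treatment shared 12.6% to 16.7% of the smaller member list and libraries of different treatments 11.1% to 21.7%. Between spleen and tdLN the ranges were 10.3% to 13.4% and 9.03% to 14.6%, and between tumor and tdLN 11.7% to 16.3% and 8.33% to 20%. Each range within a treatment (4 pairs) lay inside that across treatments (12 pairs). The medians within and across treatments were 16.1% and 13.5% for tumor and spleen, and 13.6% and 12.0% for tumor and tdLN. For spleen and tdLN they were 11.3% and 12.3%. In the same order, other V regions had 13.2% and 12.0%, 12.5% and 10.4%, and 10.8% and 11.2%. The difference of the medians was not tested.

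In each library the leading clonotype of each member was taken, 36 in all, with 5 to 96 UMIs. Of these, 7 were listed in no other library, 4 of Trav17 and 3 of Trav21-dv12, while all 12 leading Trav19 clonotypes were also listed elsewhere. The following are shown because they lead their libraries; capitals mark inserted bases.
Trav21-dv12 with Traj52, tdLN, BF10: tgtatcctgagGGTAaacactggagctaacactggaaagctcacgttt
Trav19 with Traj40, tumor, IL-10-Fc: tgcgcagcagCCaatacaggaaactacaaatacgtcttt
Trav21-dv12 with Traj58, tumor, control IgG: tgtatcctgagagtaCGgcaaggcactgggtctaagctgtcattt
Trav21-dv12 with Traj58, tumor, BF10: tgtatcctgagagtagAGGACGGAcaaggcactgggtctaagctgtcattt
Trav21-dv12 with Traj49, tdLN, control IgG: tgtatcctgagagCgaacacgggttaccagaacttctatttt
Trav21-dv12 with Traj49, tdLN, IL-10-Fc: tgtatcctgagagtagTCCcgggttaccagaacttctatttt
The Traj52 chain had 72 of the 55901 TRAC UMIs of the BF10 tdLN, or 0.129% (exact 95% interval 0.101% to 0.162%), and ranked 1 among all TRAC clonotypes there. It held 11.9% of the Trav21-dv12 UMIs of that library, the next Trav21-dv12 clonotype had 11 UMIs, and it was listed once more, with 4 UMIs in the BF10 spleen. The Traj40 chain had 96 UMIs in the IL-10-Fc tumor (0.0971%, 0.0787% to 0.119%), 5 in the IL-10-Fc tdLN and 2 in the IL-10-Fc spleen, and it was listed in no library of another treatment.

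In the control IgG tumor the Traj58 chain had 56 UMIs (0.0701%, 0.0529% to 0.0910%) and in the BF10 tumor a different Traj58 chain had 39 (0.0331%, 0.0236% to 0.0453%); neither was listed elsewhere. The Traj49 chain that led in the control IgG tdLN had 38 UMIs there, 11 in the BF10 tdLN, 5 in the control IgG spleen, 3 in the αCSF1R tdLN and 2 in the IL-10-Fc spleen. The Traj49 chain of the IL-10-Fc tdLN had 36 UMIs, and 3 in the IL-10-Fc tumor. In spleens the leading clonotypes had 6 to 22 UMIs, at most 0.0181% of TRAC UMIs. The leading Trav19 clonotypes of the spleens were a Traj58 chain with 20 UMIs in the control IgG library and Traj56 chains with 22 in IL-10-Fc, 15 in αCSF1R and 21 in BF10, and those of control IgG, IL-10-Fc and BF10 are among the 5 chains listed in 11 libraries.

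Trav21-dv12 was also listed with the delta constant gene, outside the rule, in 457 clonotype listings. It took 3.54% to 5.16% of delta UMIs in spleens and 1.32% to 1.88% in tdLNs, the reverse of its order among alpha clonotypes. In tumors it took 4.42% with control IgG, 5.50% with IL-10-Fc, 5.61% with BF10 and 0 of 1098 UMIs with αCSF1R. For UMIs taken as independent, the last count allows up to 0.273% by a floor of 3 counts, with an exact 95% upper limit of 0.335%. These 1098 UMIs belonged to only 60 delta clonotypes, so both limits are too low. Counted as clonotypes, Trav21-dv12 had 0 of 60 in that library and 5 of 143 (3.50%) in the control IgG tumor. The IL-10-Fc tumor had 18 of 339 (5.31%) and the BF10 tumor 31 of 619 (5.01%). On 60 clonotypes, the absence is not read as a difference from the other tumors. Trav17 and Trav19 were listed with delta chains 0 times.

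Among 50 other V regions with at least 0.5% of clonotypes in every library, the shares most like the summed members over the 12 libraries were those of V9D-4 (Pearson r = 0.720), V7N-6 (0.621) and V3-3 or V3D-3, which the files do not separate (0.607). For single members, named after their values were seen, they were, for Trav21-dv12, V6D-5 or V6N-5 (0.934), V9D-1 (0.903) and V4N-4 (0.895). For Trav19 they were V8N-2 (0.962), V12D-1 (0.904) and V8-2 (0.856). Trav17 alone had the same leading regions as the sum, with higher values (0.921, 0.867 and 0.785). The part of its αCSF1R tumor share of 0.947% in these values was not tested. These are descriptions, since the 12 points share tissues and treatments and the shares of a library sum to a whole.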

How the data were processed

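RNA from CD8+ T cells was sequenced with a QIAseq immune repertoire kit, and the authors used the kit's analysis portal to group reads by UMI and assign V region, J region and CDR3. The deposited values are counts, the number of UMIs of a clonotype with at least 3 or at least 7 reads; counts at 3 reads were used, without normalization. The labels name mm10, and the portal's germline set and error correction are not given in the sources used here. V regions of several genes (30.8% of TRAC listings) were kept as listed.

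Shares and exact (Clopper-Pearson) 95% intervals were computed for each library with Python 3.11.15, pandas 2.3.3, numpy 2.4.6 and scipy 1.17.1. Differences between tissues, and between members and all other V regions, were tested over 4 pools with 16 exact sign flips (two-sided) and Benjamini-Hochberg adjustment, over 12 tissue tests of clonotype share and over 4 tests of each partner measure. The interval of a treatment difference combines the exact limits of both shares. The test was also run on simulated counts with counting error alone. They had no spread between mice, so that run does not check the test for these pools. Gene positions are from GENCODE M21 and germline bases from RefSeq chromosome 14 of GRCm38. An early mismatch to germline counts all later bases up to the other end as inserted. Named were the 3 leading partners and the largest and most widely listed clonotypes of each member, V1, V2, V16 and V18, and the 3 V regions most like the members. Members and lists were chosen with earlier results of these data known. Alternatives weighted clonotypes by UMIs, raised the UMI or read minimum, merged equal amino acid chains, used V regions of 1 gene, equalized depth, used medians, dropped widely listed chains and left out each treatment. For shares, using V regions of 1 gene changes the TRAC total only.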

Additional observations from a re-analysis of the deposited data

Results flagged for a closer look

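Values of 4 libraries of a tissue were searched for a library far from the other 3, and 3 of 60 such groups had one, where chance gives about 1 in 20. All 3 were in the αCSF1R tumor, the smallest library. The Trav17 share of clonotypes there was 0.947%, on 23 clonotypes, against 0.476% to 0.510% in the other tumors. The mean number of inserted bases of Trav17 was 4.09 there, and that of Trav21-dv12, on 13 clonotypes, was 7.08.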

How the results depend on the processing

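With 4 pools no test could reach 0.05, so only direction and size are compared. Among the alternatives for the 14 main results, 80 kept the direction or, for treatment differences, stayed within the counting interval, some with a changed size as given in the text, 6 turned the sign, 4 moved the value and 1 brought it to 0. The summed share, tumor minus spleen, was -0.464 points by UMIs. Tumor minus tdLN was -0.544 by UMIs, -0.0948 with at least 2 UMIs, -0.448 with UMIs of at least 7 reads, -0.0534 with V regions of 1 gene and -0.0378 without αCSF1R. The median CDR3 length differed by 0. Against control IgG, the tumor difference by UMIs was 0.788 with IL-10-Fc and 0.855 with BF10, and the tdLN difference with UMIs of at least 7 reads was 0.388 with αCSF1R and 0.334 with BF10. In those tdLN libraries 8.31% and 6.49% of TRAC UMIs had at least 7 reads, against 36.0% with control IgG. Leaving out each treatment gave 0.0131 to 0.0802 (tdLN minus spleen), 0.00960 to 0.0980 (tumor minus spleen), -0.0378 to 0.0650 (tumor minus tdLN), 18 to 18.4 Traj numbers and 0.636 to 0.658 amino acids. For alternatives chosen after seeing the data, the Trav17 difference of tdLN minus spleen turned positive by UMIs (0.0431), with at least 2 UMIs (0.0572), at least 7 reads (0.0979), V regions of 1 gene (0.00037), equal depth (0.0371) and without αCSF1R (0.00339) or BF10 (0.0328). Trav17 tumor minus spleen was -0.0812 by UMIs and -0.0344 without αCSF1R, and tumor minus tdLN -0.124 by UMIs, -0.0188 with at least 7 reads and -0.0378 without αCSF1R. Over all treatments left out in turn, Trav17 ranged from -0.0597 to 0.0328 for tdLN minus spleen, from -0.0344 to 0.138 for tumor minus spleen and from -0.0378 to 0.163 for tumor minus tdLN. Trav19 tumor minus spleen was -0.204 by UMIs. The inserted bases of Trav21-dv12 differed from other V regions by -0.0951 with at least 2 UMIs and -0.0513 with at least 7 reads. The causes were not tested. The αCSF1R tumor, with 60 member clonotypes, limits every tumor value. Tissue tests were paired by treatment throughout.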
